A study of Mus musculus with 6 samples.

Results

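Genes named Gpr followed only by a number, with at most 1 lower-case letter after it, were followed in the RNA of mouse haematopoietic stem and progenitor cells. The deposited table listed 91 such genes among 38926 gene symbols. A gene was counted as expressed when its mean over the wild type libraries was at least 1 FPKM (fragments per kilobase of gene and depth, so that genes of unlike length can be set side by side). By this rule 21 of the 91 were expressed and 70 were not. Bone marrow of femur and tibia came from C57BL/6 mice aged 8 to 12 weeks, and lineage-negative, Sca1-positive, cKit-positive cells (LSK, a gate containing haematopoietic stem cells and their earliest progeny) were sorted from it without any treatment. The 6 libraries comprised 3 labelled wild type (WT) and 3 labelled double knockout of the dopamine receptor genes Drd2 and Drd3 (KO), and the comparison asked what loss of both receptors does to LSK RNA. The sources used here give neither the design of the alleles nor whether each replicate was its own animal, and p-values therefore speak of spread among these libraries, which may be technical.

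The name Gpr was given to genes that resembled G protein-coupled receptors before a ligand was known. Such receptors cross the membrane 7 times and pass a signal to G proteins inside the cell, which raise or lower cyclic AMP, release calcium or act on the cytoskeleton. Some of these genes have since been paired with a ligand (protons, fatty acids, oxysterols, peptides). A large group proved to be adhesion receptors, many of which cleave themselves and carry a tethered agonist. Others encode Golgi or lysosomal membrane proteins that are not receptors in the usual sense. Of the 91 genes, 19 carry another symbol in the current annotation, among them all 17 adhesion receptors (Gpr56 is now Adgrg1, Gpr97 is now Adgrg3).

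Reads worked back from FPKM summed to between 5245416 and 7148421 per library; reads of a gene are lower bounds where its annotated length could not be fitted, as for Gpr56, Gpr84, Gpr97 and Gpr183. Kit was at 82.5 to 150 FPKM and Ly6a, which encodes Sca1, at 110 to 161 FPKM, so both genes of the gate were present in all 6 libraries. The targeted genes did not bear out the labels: Drd2 was listed at 0 throughout, while Drd3 reached 1.62, 3.08 and 3.04 FPKM in the KO-labelled libraries and was listed at 0 in every WT-labelled one. WT and KO below therefore name libraries by their labels. The libraries labelled KO replicates 1 and 3 lacked the Y-linked transcript Ddx3y, which the other 4 held at 12.5 to 15.1 FPKM, and held Igkc, the immunoglobulin kappa constant region, at 3182 and 1173 FPKM against at most 4.93 FPKM in the others. Results are therefore also given without these libraries, which leaves 1 KO library whose spread is assumed to be that of the other group. In bulk RNA, fewer cells of a type and less RNA per cell cannot be told apart.

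Expression among the 21 genes was concentrated in a few. Gpr56 alone supplied 57.0 ± 2.4% of the summed FPKM of all 91 genes in the WT libraries (SD, n = 3), and with Gpr171, Gpr97 and Gpr65 85.6 ± 0.40%. WT means ran from 1.69 FPKM (Gpr183) to 709 FPKM (Gpr56), with a median of 6.65 FPKM; 9 genes were at 10 FPKM or more and 12 between 1 and 10 FPKM. All 21 were above 1 FPKM in each of the 6 libraries, with at least 21 recovered reads in each. The share of Gpr genes that were expressed, 23.1%, stood beside 28.8% (11220) of all 38926 symbols.

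**Figure D1:**
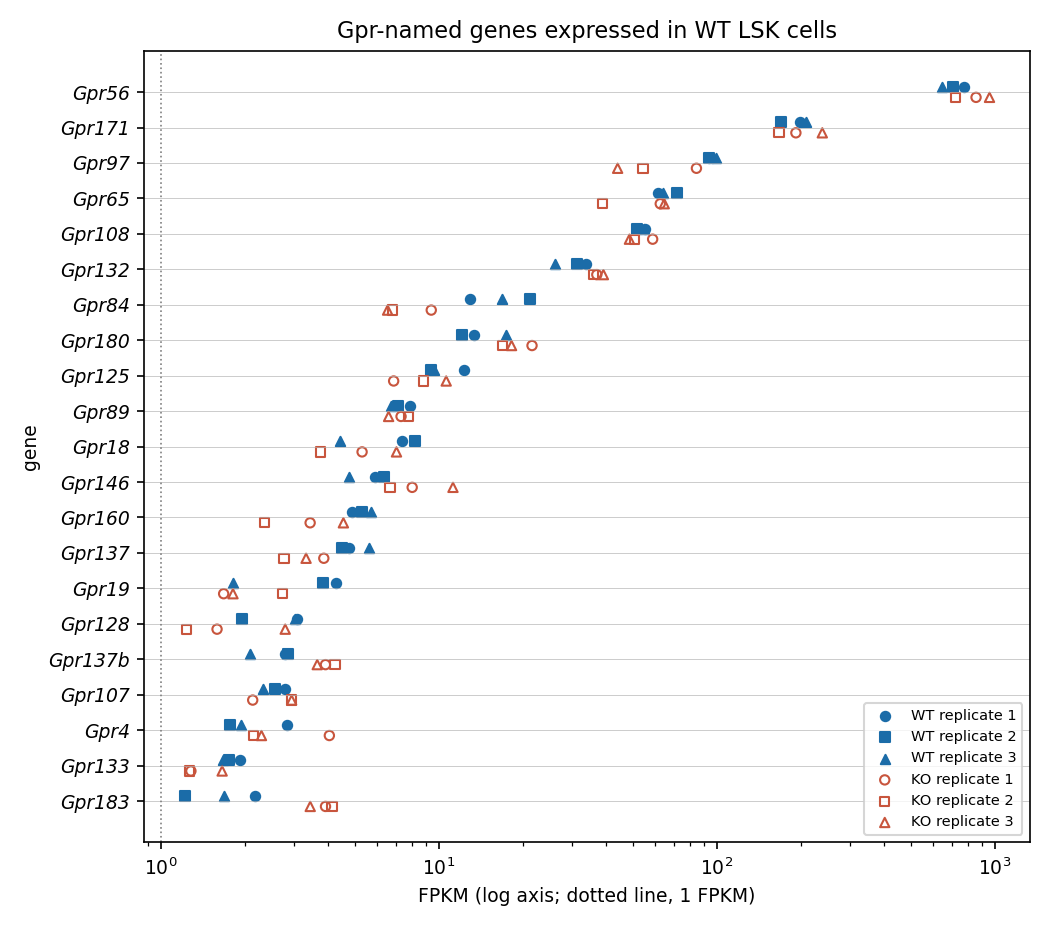
FPKM (log axis) of the 21 expressed Gpr genes in each library, filled blue for WT and open red for KO, with circles, squares and triangles for replicates 1, 2 and 3, ordered by WT mean. Gpr56 stands at 648 to 957 FPKM in all 6 libraries, while the lowest gene, Gpr183, is at 1.22 to 2.18 FPKM in WT and 3.45 to 4.13 FPKM in KO.

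The comparison of KO with WT found 1 Gpr gene lower, Gpr84, and 1 higher, Gpr183. Gpr84, a receptor for medium-chain fatty acids in myeloid cells, had WT and KO means of 16.997 ± 4.165 and 7.58 ± 1.57 FPKM, and Gpr183, the oxysterol receptor that guides B cells, had means of 1.69 ± 0.48 and 3.83 ± 0.35 FPKM (± is the SD of 3 libraries here and below). These were 2 of the 21 (9.52%) that passed limma's test (values as log2(FPKM + 1), adjusted p by Benjamini-Hochberg, threshold 0.05), beside 10.9% of all 11371 tested genes, so the share was near that of genes at large. By direction, 5.48% of all tested genes were higher and 5.43% lower. The genes that entered the test, with 1 FPKM or more on average across the 6 libraries, were the same 21 that were expressed in WT, so none entered through its KO values. The median difference of the 21 was -0.03 on the log2(FPKM + 1) scale, beside -0.002 for all tested genes, and 9 of them were above 0 and 12 below. Their median absolute difference was 0.29, beside 0.22 for all tested genes. The 3 KO values lay outside the range of the 3 WT values in 9 of the 21 (42.9%), beside 32.8% of all tested genes. The count of 2 moved with the setting, as did the share of all genes that passed. It was 0 in limma's test without WT replicate 2, where 3.25% of all genes passed. It was 1 when low genes were kept in (3.04% of all genes), with the replicate number as a block (7.08%), without WT replicate 3 (4.48%) and without KO replicate 2 (7.77%). It was 3 in 5 settings. In 4 of these Gpr97 was added: with a common FPKM total (9.96% of all genes), quantile normalization (11.5%), voom on recovered reads (13.8%) and a filter of 1 FPKM in 3 or more libraries (11.4%). Without KO replicate 3 (14.1%) the addition was Gpr160. Without KO replicate 1 the count was 2, but these were Gpr84 and Gpr97, where 824 of all tested genes passed. The same pair passed under a filter of a mean of at least 5 FPKM, which left Gpr183 out and where 1120 genes passed. Without KO replicates 1 and 3 it was again 2, but these were Gpr97 and Gpr65, where 4.52% of all genes passed, and with a term for Y-linked transcripts it was 1, Gpr65, where 3.28% passed. The surface genes that divide the gate moved in the same comparison: of 8 LSK markers 3 rose, among them Slamf1 and Procr, and Cd34 and Flt3 fell, and their part in these results was not tested.

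**Figure D2:**
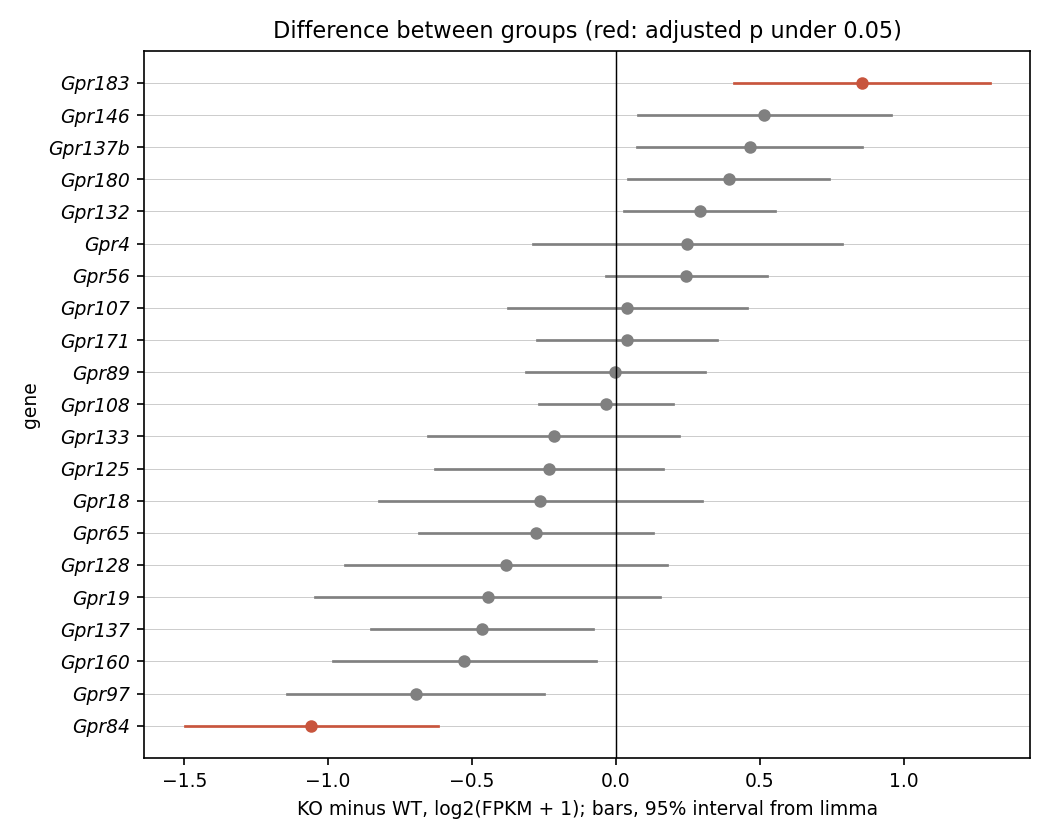
Difference between KO and WT on the log2(FPKM + 1) scale for each of the 21 genes, with 95% intervals from limma. Gpr84 at -1.06 and Gpr183 at 0.85, in red, passed the adjusted threshold; the intervals of 17 of the 21 genes lie wholly between -1 and 1.

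A list of receptors with reported lipid, nucleotide or metabolite ligands, which does not take in every such receptor, held 10 of the 91 genes, and 3 of these were expressed: Gpr84, Gpr18 and Gpr183. Gpr84 (chromosome 15, 103308235 to 103310612, build GRCm38) was at 12.9, 21.2 and 16.8 FPKM in WT replicates 1 to 3 (125, 193 and 163 reads) and at 9.39, 6.81 and 6.54 FPKM in KO replicates 1 to 3 (105, 73 and 55 reads). Every KO value was below every WT value. The ratio of the WT to the KO mean was 2.24. The difference on the log2(FPKM + 1) scale was -1.06 ± 0.20 (SE, limma adjusted p = 0.0115). Without WT replicate 2, the highest WT library, it was -0.89 and missed the threshold (limma adjusted p = 0.0586; 0.00586 to 0.0756 over its alternatives). Without KO replicates 1 and 3 it was -1.18 (limma adjusted p = 0.0756), so the remaining KO library lay on the same side. Of the neutrophil markers, 7 of 7 were detected with a summed level of 115 to 235 FPKM in WT and of 157, 25.9 and 58.9 FPKM in KO replicates 1, 2 and 3, and 0 of 6 tested passed. The 7 monocyte, macrophage and dendritic cell markers summed to 387 to 460 FPKM in WT and to 492, 474 and 561 FPKM in KO replicates 1, 2 and 3, and 0 of 3 tested passed. Among the KO libraries Gpr84 and the neutrophil sum were highest in replicate 1 and the monocyte sum in replicate 3. Of the 3 tested monocyte genes, Cd14 was at 22.2, 74.6 and 151 FPKM in KO replicates 1, 2 and 3. Lyz2 (464, 395 and 404 FPKM) and Csf1r (4.91, 3.64 and 4.34 FPKM) were instead highest in KO replicate 1. The part of either cell type in the result was not tested. In GENCODE M21, 681 of the 1725 exonic bases of Gpr84 (39.5%) lie opposite an exon of the antisense gene Gm49482, and the library kit does not mark strand.

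Gpr183 (chromosome 14, 121952551 to 121965195) lay just above the threshold of expression, at 2.18, 1.22 and 1.69 FPKM in WT replicates 1 to 3 (40, 21 and 31 reads) and at 3.91, 4.13 and 3.45 FPKM in KO replicates 1 to 3 (83, 84 and 55 reads). All KO values exceeded all WT values. The ratio of the KO to the WT mean was 2.26. The difference on the log2(FPKM + 1) scale, which understates changes of low genes, was 0.85 ± 0.20 (SE, limma adjusted p = 0.0260). It stayed above 0 in all 16 alternatives that tested it, at 0.72 to 1.20, but missed the threshold in 8 of them (limma adjusted p = 0.0182 to 0.116 over all 16). These were no filter, the replicate block, leaving out WT replicate 2, WT replicate 3, KO replicate 1 or KO replicate 2 (limma adjusted p = 0.105, 0.0811, 0.0689 and 0.0733 for these libraries), and both settings that set KO replicates 1 and 3 apart (0.106 and 0.116). Gpr183 is known from B cells, and the summed level of 10 B and plasma cell markers was 128 to 150 FPKM in WT and 3369, 122 and 1381 FPKM in KO replicates 1, 2 and 3; 10 of 10 were detected and 0 of 7 tested passed. Igkc made up most of that sum in KO replicates 1 and 3; in KO replicate 2 it was at 4.93 FPKM, while Cd79a and Mzb1 were at 3.87 and 3.04 FPKM there, above their WT ranges of 0.659 to 1.98 and 0.377 to 1.59 FPKM. Gpr183 was at 4.13 FPKM in that library, and the part of B and plasma cells in the result was not tested. The B cell gene Ms4a1 was at 0.234 FPKM or less in WT and at 0 in every KO library.

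Gpr18, a receptor for which lipid mediators have been reported as ligands, is the neighbour of Gpr183, 36.8 kb away on the same strand, and both lie within Ubac2 on the opposite strand with no exonic base shared. Gpr18 was at 7.34, 8.21 and 4.40 FPKM in WT and at 5.29, 3.76 and 7.04 FPKM in KO. Its groups overlapped and it did not pass (-0.26 on the log2 scale, 95% interval -0.82 to 0.30, limma adjusted p = 0.539). The 2 neighbours thus gave point estimates on opposite sides of 0; the difference between them was not tested.

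Adhesion receptors made up 17 of the 91 genes, of which 5 were expressed: Gpr56, Gpr97, Gpr125, Gpr128 and Gpr133. Gpr56 (chromosome 8, 94974751 to 95014217), a receptor for collagen in other tissues and a known surface gene of haematopoietic stem cells, ranked 45th of 38926 symbols by WT mean. It was at 773, 707 and 648 FPKM in WT (18653, 16016 and 15632 reads) and at 856, 721 and 957 FPKM in KO (23855, 19248 and 20055 reads). The groups overlapped, since KO replicate 2 fell among the WT values, and the difference of 0.25 ± 0.12 on the log2 scale (SE; 95% interval -0.04 to 0.53) did not pass (limma adjusted p = 0.241).

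Gpr97 (chromosome 8, 95017692 to 95045250), an adhesion receptor of granulocytes, starts 3.47 kb after the end of Gpr56 on the same strand. Gpr97 was even across WT, at 93.8, 93.4 and 99.6 FPKM (1427, 1333 and 1516 reads), and spread across KO, at 84.4, 54.2 and 44.0 FPKM (1484, 912 and 581 reads). All KO values were below all WT values. The difference was -0.70 ± 0.20 on the log2 scale (SE) and lay at the edge of the threshold (limma adjusted p = 0.0547; 0.00477 to 0.169 over its alternatives). It passed in 7 of 17 alternatives, among them voom on recovered reads (adjusted p = 0.0226), both other scalings (0.0383 and 0.0367), without KO replicate 1 (-0.96, limma adjusted p = 0.00477) and without KO replicates 1 and 3 (-0.81, 0.0185). Among the KO libraries the summed neutrophil markers given above were highest in replicate 1, where they lay within their WT range, as Gpr97 did not. Gpr97 was lowest in replicate 3 and the markers in replicate 2; their part in the result was not tested.

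The other adhesion receptors were lower and did not pass. Gpr125, which acts in planar cell polarity, was at 9.38 to 12.3 FPKM in WT and at 6.88 to 10.6 FPKM in KO (-0.23, limma adjusted p = 0.428). Gpr128 was at 1.96 to 3.09 and 1.23 to 2.80 FPKM (-0.38, limma adjusted p = 0.357). Gpr133, a receptor coupled to the stimulatory G protein, was at 1.67 to 1.92 FPKM in WT and at 1.27 to 1.66 FPKM in KO, without overlap but by a small margin (-0.22, 95% interval -0.65 to 0.22, limma adjusted p = 0.511). Of the remaining 12 adhesion receptors 4 were at 0 in all 6 libraries.

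The sequences just upstream of the genes that changed or came nearest to it are shown. Whether they regulate these genes was not tested. Windows of 250 bases before each annotated start were taken from RefSeq (GRCm38.p6). Here they are cut where the GENCODE M21 model of the gene begins, and read 5′ to 3′ on the strand of the gene. Capitals mark the only match to the searched motifs. The windows are chr15:103310613-103310688 (minus strand) for Gpr84, chr14:121965196-121965443 (minus strand) for Gpr183 and chr8:95017442-95017691 (plus strand) for Gpr97.
Gpr84: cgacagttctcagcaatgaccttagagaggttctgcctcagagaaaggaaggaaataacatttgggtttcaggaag
Gpr183: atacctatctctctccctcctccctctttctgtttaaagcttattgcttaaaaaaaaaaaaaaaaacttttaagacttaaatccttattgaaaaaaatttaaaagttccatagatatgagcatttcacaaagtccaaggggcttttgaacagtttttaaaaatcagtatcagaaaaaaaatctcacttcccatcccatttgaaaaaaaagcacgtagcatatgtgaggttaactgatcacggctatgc
Gpr97: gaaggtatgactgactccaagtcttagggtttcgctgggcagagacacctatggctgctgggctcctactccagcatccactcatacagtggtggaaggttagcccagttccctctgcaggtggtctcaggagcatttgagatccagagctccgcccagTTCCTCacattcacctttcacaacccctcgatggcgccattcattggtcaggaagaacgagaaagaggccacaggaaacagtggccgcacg
Over the full 250 bases the content of G and C was 46.0%, 32.0% and 55.2% in Gpr84, Gpr183 and Gpr97, beside a median of 52.4% over 32851 windows of the same length, and there were 3, 2 and 7 CpG pairs beside a median of 6. Letters bound by blood and cyclic AMP factors were searched on both strands, and matches of different motifs were allowed to overlap. PU.1 and related ETS factors were represented by GAGGAA. For the GATA factors of the erythroid and stem cell programmes the letters searched were AGATAA. RUNX factors, which act throughout blood development, were represented by TGTGGT. The core of the cyclic AMP response element was searched as TGACG. Gpr97 held GAGGAA on the reverse strand, 91 bases before the start, and neither Gpr84 nor Gpr183 held any of the 4 in the full window. RefSeq windows were matched for 18 of the 21 expressed genes, 27 windows in all. The ETS letters were in 7 of the 27 (25.9%; 23.3% of all windows) and the GATA letters in 1 (3.70%; 9.99%). Of the 27, 3 held the RUNX letters (11.1%; 14% of all windows) and 9 the cyclic AMP core (33.3%; 17.8%). A match is a description of the letters only.

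**Figure D3:**
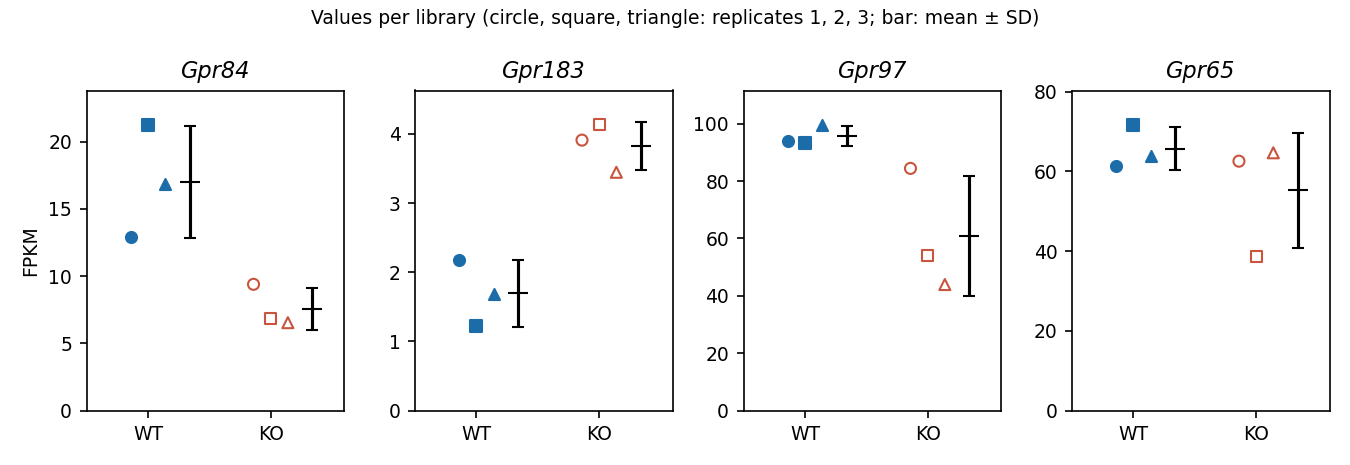
FPKM in each library for Gpr84, Gpr183, Gpr97 and Gpr65, with WT filled and KO open, circles, squares and triangles for replicates 1, 2 and 3, and the mean ± SD beside them. The KO values lie below all WT values in Gpr84 and Gpr97 and above them in Gpr183, while in Gpr65 only KO replicate 2, at 38.7 FPKM, stands apart.

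Proton-sensing receptors, which respond to acid outside the cell, were 4 of the 91 genes, and 3 were expressed: Gpr65, Gpr132 and Gpr4. Gpr65, which raises cyclic AMP in lymphocytes and macrophages, was at 61.4, 71.7 and 63.9 FPKM in WT and at 62.6, 38.7 and 64.7 FPKM in KO. KO replicates 1 and 3 fell within the WT range and replicate 2 below it, and the gene did not pass (-0.28 ± 0.18 SE, limma adjusted p = 0.359). Without KO replicates 1 and 3 the difference was -0.74 (limma adjusted p = 0.0390), and with a term for Y-linked transcripts the adjusted p was 0.0305. Both values rest on KO replicate 2 alone. Gpr132, a receptor of lymphoid and myeloid cells, was at 33.8, 31.5 and 26.2 FPKM in WT and at 37.0, 35.9 and 39.1 FPKM in KO. Its groups did not overlap, yet the difference of 0.29 (95% interval 0.03 to 0.55) missed the adjusted threshold (limma adjusted p = 0.141). Gpr4, best known from endothelial cells, was at 1.77 to 2.83 FPKM in WT and at 2.16 to 4.04 FPKM in KO, highest in KO replicate 1 (0.25, limma adjusted p = 0.541). Of the endothelial and stromal markers, Cdh5 was at 0.14 FPKM or less and Kdr at 0.477 FPKM or less in every library. Pecam1 was at 9.85 to 12.8 FPKM and Emcn at 3.23 to 4.87 FPKM across the libraries, and neither passed. The 8 endothelial and stromal markers, all detected, summed to 40.9 to 42.4 FPKM in WT and to 24.8 to 27.7 FPKM in KO. Of 5 tested, 2 were lower, Cxcl12 and Pdgfrb. The part of these cells in the result was not tested.

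Gpr171 (chromosome 3, 59096448 to 59101821), a relative of the P2Y12 receptor, was the second highest of the 91 genes. It was at 199, 170 and 209 FPKM in WT (2769, 2223 and 2905 reads) and at 192, 167 and 239 FPKM in KO (3089, 2573 and 2891 reads). The groups overlapped throughout, and the difference was 0.04 with a 95% interval of -0.27 to 0.35 on the log2 scale (limma adjusted p = 0.887); its sign turned without KO replicate 3 (-0.10) and without KO replicates 1 and 3 (-0.20). It lies within Med12l on the opposite strand, without a shared exonic base. Gpr171 and Gpr65 are known from T cells. Of the T and NK cell markers, Cd3g and Ncr1 (the latter of NK cells) were at 0 in every library and Cd3e at 0.238 FPKM or less. Cd4 was at 1.05 to 2.42 FPKM across the libraries. Trac was at 0.413 to 0.776 FPKM in WT and at 4.70, 1.05 and 0.446 FPKM in KO replicates 1, 2 and 3. The 8 T and NK markers summed to 2.77 to 4.12 FPKM in WT and to 3.79 to 9.22 FPKM in KO. Of these 6 were detected and 3 tested, and 1, Klrb1c, was higher. Their part in the results was not tested.

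Genes of the Gpr series listed as not encoding classical receptors numbered 8, of which 6 were expressed and none was at 0 in all libraries. None of the 6 passed. Gpr108, a Golgi protein, was at 55.3, 51.5 and 54.5 FPKM in WT and at 58.7, 50.6 and 48.5 FPKM in KO (-0.03, 95% interval -0.27 to 0.20, limma adjusted p = 0.862). Gpr89, the Golgi pH regulator, had means of 7.24 ± 0.57 and 7.23 ± 0.60 FPKM (-0.001, 95% interval -0.31 to 0.31, limma adjusted p = 0.997), a value whose sign turned in 5 of 17 alternatives; 1333 of its 5365 exonic bases lie opposite exons of Pdzk1, which was at 0.0779 FPKM or less. Gpr107, a relative of Gpr108, was at 2.33 to 2.80 FPKM in WT and at 2.14 to 2.95 FPKM in KO (0.04, limma adjusted p = 0.914).

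The lysosomal pair Gpr137 and Gpr137b gave estimates on opposite sides of 0, each without overlap between the groups. Gpr137 was at 4.74, 4.50 and 5.61 FPKM in WT and at 3.86, 2.77 and 3.33 FPKM in KO (-0.47, limma adjusted p = 0.115). Gpr137b was at 2.80, 2.86 and 2.096 FPKM in WT and at 3.91, 4.23 and 3.65 FPKM in KO (0.46, limma adjusted p = 0.120). Neither passed, and the difference between them was not tested. Reads of Gpr137b may be shared with its pseudogene copy Gpr137b-ps, listed at 0.512 to 0.832 FPKM, and 15.4% of the exonic bases of Gpr137 lie opposite exons of Bad, a gene at 19.3 to 28.2 FPKM. Gpr180 was at 13.4, 12.1 and 17.4 FPKM in WT and at 21.6, 16.9 and 18.3 FPKM in KO, overlapping only between WT replicate 3 and KO replicate 2 (0.39, limma adjusted p = 0.138).

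Of the 44 genes that the lists of roles left ungrouped, some of which have known ligands, 3 were expressed, Gpr146, Gpr160 and Gpr19, and 18 were at 0 in all libraries. Gpr146, linked to plasma cholesterol in mice, was at 5.88, 6.34 and 4.74 FPKM in WT and at 8.02, 6.67 and 11.2 FPKM in KO, without overlap (0.52, 95% interval 0.08 to 0.95, limma adjusted p = 0.122). Gpr160 was at 4.85, 5.29 and 5.72 FPKM in WT and at 3.44, 2.36 and 4.53 FPKM in KO, also without overlap (-0.53, limma adjusted p = 0.129), and passed without KO replicate 3 (-0.70, limma adjusted p = 0.0456). Gpr19 was at 4.25, 3.82 and 1.82 FPKM in WT and at 1.68, 2.74 and 1.82 FPKM in KO; WT replicate 3 lay among the KO values (-0.45, limma adjusted p = 0.317). Of the 3 class C genes, the family of the glutamate receptors, and the 3 genes of the constitutively active group of Gpr3, none was expressed.

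The 70 genes below the threshold comprised 29 at 0 in all 6 libraries and 41 with reads in at least 1, and 8 of the 41 had reads in all 6. None of the 70 had a KO mean of 1 FPKM. For 19 of the 41 the annotated length fixed the number of reads, whose total over the 6 libraries was at most 111 (Gpr157) with a median of 10; for the other 22 the reads are lower bounds. Nearest below the threshold were Gpr31b, at 0.667, 1.78 and 0.333 FPKM in WT (mean 0.926), and Gpr157, at 0.490, 1.32 and 0.294 FPKM (mean 0.702); nearest above it were Gpr183 and Gpr133 (means 1.69 and 1.79). In 8 genes reads were found in WT alone and in 4 in KO alone. Gpr34, a receptor for lysophosphatidylserine, was the only one of these 12 with reads in all 3 libraries of a group, with 3, 6 and 1 reads in WT and 0 in KO. It did not pass in the fit with no filter on low values (limma adjusted p = 0.210), and neither did Gpr161, at 0.415, 0.166 and 0.104 FPKM in WT against 0, 0 and 0.0597 FPKM in KO (limma adjusted p = 0.249). Both were chosen after their values were seen, from those with an unadjusted p under 0.05 in that fit.

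Receptors of the same superfamily that carry other names were counted from a fixed list. Of 71 listed rhodopsin-family receptors of blood cells the deposited data held 70, of which 36 were tested, and 4 rose and 9 fell (36.1%, beside 10.9% of all tested genes and 9.52% of the Gpr genes; these shares were not tested against each other). The sphingosine 1-phosphate receptor S1pr1, which governs exit from marrow, rose from 25.1 ± 2.4 to 58.3 ± 13.4 FPKM, and S1pr3 fell from 5.98 ± 0.33 to 2.18 ± 0.89 FPKM. The thromboxane receptor Tbxa2r fell from 19.7 ± 2.3 to 7.5 ± 2.2 FPKM and the prostacyclin receptor Ptgir from 2.87 ± 0.36 to 0.393 ± 0.303 FPKM. The median difference of the 36 was -0.23. The 13 calls dropped to 3 without WT replicate 2 and to 4 without KO replicates 1 and 3. Among adhesion receptors under other symbols 23 were listed, 13 found and 3 tested, and Cd97, a receptor of leukocytes, rose from 6.35 ± 0.19 to 10.9 ± 2.4 FPKM, a call lost without any 1 of the WT libraries and without KO replicate 2. Of 27 tested genes for G protein subunits, receptor kinases and arrestins 3 rose and 3 fell (22.2%). By smallest p the first were Gng11, a G protein gamma subunit, which rose from 38.2 ± 5.7 to 75.4 ± 10.9 FPKM, the beta subunits Gnb4 (3.32 ± 0.60 to 8.07 ± 1.92 FPKM) and Gnb5 (6.79 ± 0.77 to 11.8 ± 2.0 FPKM), and the receptor kinase Adrbk2, which fell from 3.37 ± 0.10 to 1.62 ± 0.07 FPKM. This count of 6 became 2 without WT replicate 2 or WT replicate 3 and 1 without KO replicates 1 and 3.

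**Figure D4:**
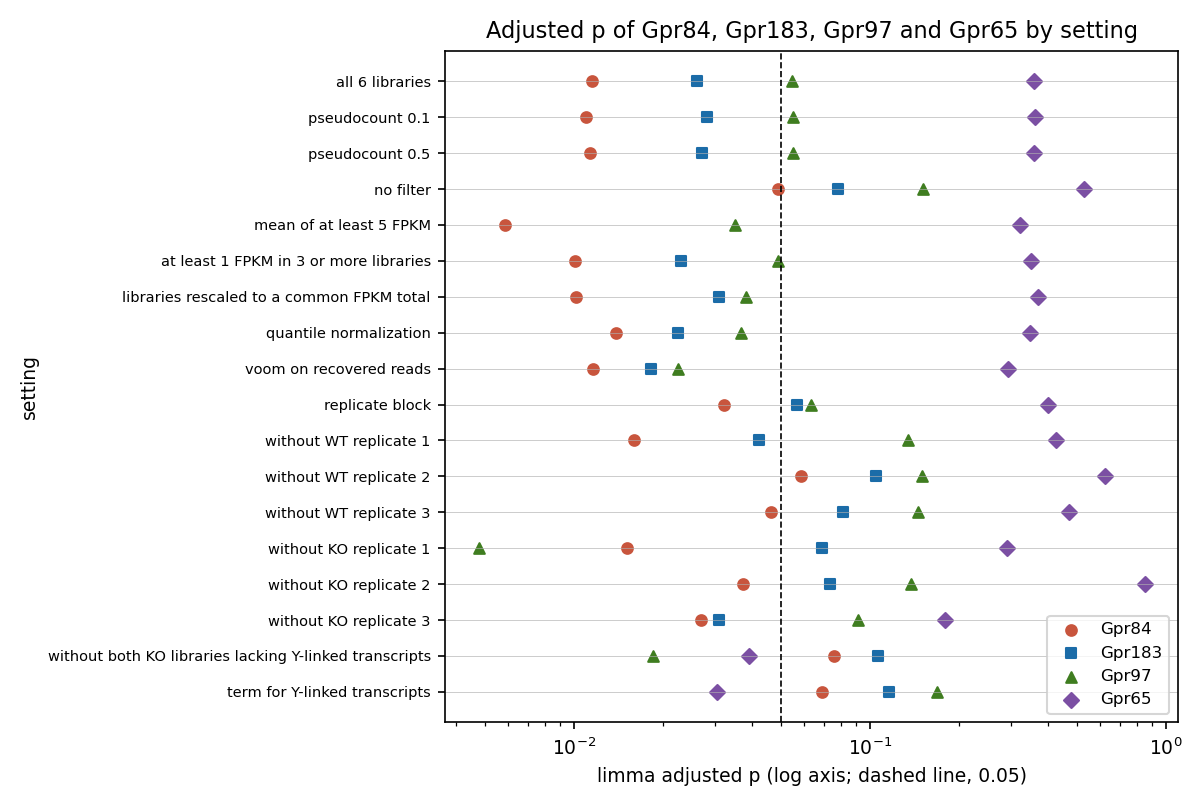
Adjusted p (log axis) of Gpr84, Gpr183, Gpr97 and Gpr65 in the fit of all 6 libraries and in each alternative; the dashed line marks 0.05. Gpr84 lies left of the line in all but 3 alternatives, Gpr183 in 8 of 16, Gpr97 in 7 of 17 and Gpr65 in the 2 that set KO replicates 1 and 3 apart.

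The spread between libraries was wider in KO than in WT. The SD was larger in KO for 13 of the 21 genes, and the median coefficient of variation was 12.7% in WT and 18.3% in KO, beside 11.1% and 15.5% over all tested genes. Summed over the 91 genes, FPKM was 1243 ± 62 in WT and 1338 ± 171 in KO; with Gpr56 left out it was 533 ± 14 and 493 ± 56, so in both sums the means differed by less than the SD of the KO libraries, though by more than that of the WT libraries. The share of Gpr56 in the sum was 54.4 to 58.9% in WT and 62.0 to 64.5% in KO, without overlap, a ratio within the libraries that does not show which genes moved.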

How the data were processed

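RNA of sorted LSK cells was sequenced in 6 libraries, 3 labelled WT and 3 labelled KO. Per the labels' protocols, SMART-Seq v4 made the cDNA and Nextera XT the libraries, and neither marks strand. The authors deposited FPKM values, 1 per gene symbol and library. The submitters' processing notes list build mm10 and the tools TopHat2 2.1.1, bcl2fastq 2.19.1.403, DESeq2 1.18.1 and HTSeq 0.6.1, with no roles; no source used here gives the annotation. Members, lists and tests were chosen with earlier results of these data known.

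Groups were compared with limma 3.58.1 in R 4.3.3 (lmFit, eBayes with trend) on log2(FPKM + 1), which understates changes of low genes, for the 11371 genes averaging 1 FPKM or more. Its two-sided p-values received the Benjamini-Hochberg adjustment across that whole set. The script was tested on simulated data. Within each of 17183 genes above 0 in 2 or more libraries, FPKM values of the libraries, after 1 factor per library, stood in ratios of whole numbers (relative tolerance 1e-12), which gave reads, scaled to GENCODE M21 exon lengths where these fitted (5 of the 21 expressed genes, otherwise lower bounds). With these, 1 read on a gene of 2 kb was 0.0693 to 0.0921 FPKM. Voom used them as an alternative. Named were all expressed genes, called genes, those next to the threshold and up to 4 called genes per list by smallest p. Python 3.11.15, pandas 2.3.3 and matplotlib 3.10.9 were used. Some genes are not reported here.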

Additional observations from a re-analysis of the deposited data

How the results depend on the processing

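In 17 alternatives, 17 of the 21 expressed genes kept their sign. The exceptions were not called in any: Gpr89 (0.0054 with voom, 0.10 without KO replicates 1 and 3 and with the Y-linked term, -0.050 to 0.055 on leaving out 1 library), Gpr171 (-0.20 in both Y-linked settings, -0.10 to 0.16 on leaving out 1 library), Gpr107 (-0.016 to 0.15) and Gpr108 (-0.12 to 0.021), the last 2 only on leaving out 1 library. Gpr84 and Gpr183 lost their calls as given above. The Gpr count of 2 was 1 with no filter, with the replicate block and with the Y-linked term (there Gpr65), and 0 to 3 on leaving out 1 library. Other counts moved as follows, with no filter, with the replicate block, without KO replicates 1 and 3, with the Y-linked term, and as a range on leaving out 1 library. All genes, 1240: 588, 805, 514, 373 and 370 to 1598. Rhodopsin-family list, 13: 5, 6, 4, 2 and 3 to 12 (7 at a mean of at least 5 FPKM). Adhesion list, 1: 0, 0, 0, 0 and 0 to 1 (0 with a common FPKM total). G protein list, 6: 3, 2, 1, 0 and 2 to 8. The cause of these moves was not tested; no filter adds genes to the adjustment and leaving out libraries lowers their number. At a WT mean of 5 FPKM, 13 Gpr genes were expressed. Same-numbered WT and KO libraries deviated with correlations of -0.03, 0.05 and -0.12, and those of unlike number with correlations of -0.16 to 0.17. With 3 libraries per group these values cannot decide whether same-numbered libraries were paired. The block lowered the count of calls from 1240 to 805. The few reads behind levels under 1 FPKM limit what can be said of those genes.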
